A study of Rattus norvegicus with 4 samples.

Results

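The kinesin genes were examined across the m6A peak lists of neonatal rat cardiac fibroblasts (CFs). Kinesins are motor proteins that use ATP to walk along microtubules. Members were chosen by gene name, with earlier results of these data known. They are the rows whose gene ID carries a rat symbol made of Kif and a number or of Kifc and a number. The RefSeq table names 42 such genes, of which 29 carried a listed peak in the Vector or the FTO group, among 8729 genes that did. The CFs came from Sprague-Dawley rats no older than 3 days and were transfected for 48 h with an empty plasmid (Vector, labelled WT) or with a plasmid carrying rat FTO cDNA (FTO, labelled FTO overexpression). FTO is an enzyme that removes m6A, a methyl mark on adenosines in RNA. Each group had 1 m6A-IP library, made from RNA pulled down with an m6A antibody, and 1 input library, and the deposited data are 1 peak list for each group. A peak is a stretch of RNA where the pulled-down reads exceeded the input, and the lists give its length in bp, its transcript and its gene. With 1 library pair per group there was no replicate check, so counts and lengths are described without a test. The number of animals behind each culture is not given in the sources used here.

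Kinesins share a motor domain and differ in their tails, which bind cargo or spindle parts. Transport kinesins carry vesicles, organelles and RNA along microtubules between divisions. Mitotic kinesins build the spindle, move chromosomes and organise the midzone where the cell is cleaved, and they are made mainly in dividing cells. The genes were sorted by these roles into 13 mitotic, 17 transport and 11 other kinesins, the last group holding motors of cilia, of signalling and of microtubule breakdown. Of these, 9, 15 and 5 had a peak. Kif4b and Kif19b were not classed, and Kif25, in the last group, was not matched in the RefSeq table.

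Some facts of the whole data set bear on what follows. The Vector list held 21249 peaks and the FTO list 17796, so that the FTO list was 83.7% as long. The sequencing depth is unknown. The transfected gene, Fto, had 3 Vector peaks and 9 FTO peaks. Peaks were listed for 6 of 11 fibroblast markers, 14 for Vector and 10 for FTO, with Col1a1, Col1a2, Col3a1, Dcn and Vim at 0 in both lists, and a gene needs both transcript and m6A to be listed. Of 7 cardiomyocyte markers 6 were listed, with 22 Vector and 26 FTO peaks. Myh7 had 8 and 5 and Actn2 had 1 and 0, Myh6 had 7 and 7, and Tnnt2 with 4 and 7, Ryr2 with 2 and 5 and Nkx2-5 with 0 and 2 had more, while Ttn was at 0. Endothelial markers had 0 and 2 peaks, all in Tek, and immune markers had 12 and 9. The part of other cell types or of transcript level in the peak numbers was not tested.

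The kinesin genes together carried 137 Vector peaks and 97 FTO peaks, which is 70.8% of the Vector number. Of the 29 genes, 21 had fewer FTO than Vector peaks, 4 had as many and 4 had more. Over all genes, 41.4% had fewer FTO peaks and 21.2% had more. These shares were not matched for peaks per gene, and a gene with more Vector peaks has more room for a lower number. The 137 Vector peaks lay in 28 kinesins and the 21249 of the whole list in 7894 genes, so kinesins had more peaks per gene. m6A on a transcript and the amount of that transcript cannot be told apart from peak lists, nor can fewer dividing cells and less RNA per cell. All 9 mitotic kinesins had fewer FTO peaks, Kif14, Kif18b and Kif22 by 1 peak only, and the total of the class went from 37 to 8. Of the 15 transport kinesins, 9 had fewer, 3 as many and 3 more, and their total went from 85 to 73, which is 85.9% and near the 83.7% of the whole list. The 5 other kinesins had 15 Vector peaks and 16 FTO peaks. With FTO numbers scaled up by 1.194 to make both lists equally long, the mitotic difference was -27.45, and the transport difference turned from -12 to 2.16. Among peaks of 200 bp or more, the mitotic class had 10 and 6 peaks and the transport class 26 and 30, so the transport direction turned there as well.

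**Figure D1:**
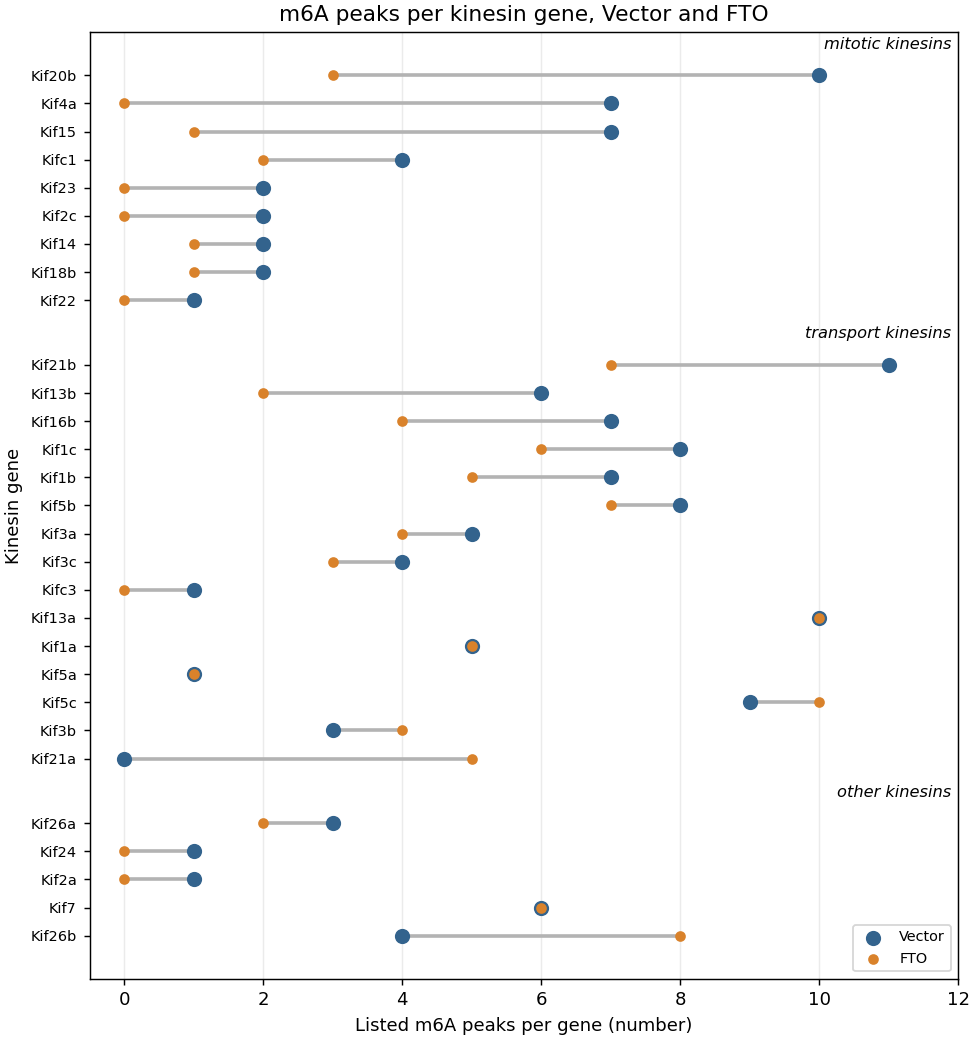
Number of listed m6A peaks (horizontal axis) for each of the 29 kinesin genes with a peak (vertical axis), by class, in the Vector list (large blue points) and the FTO list (small orange points), joined by grey lines. All 9 mitotic kinesins lie to the left in the FTO list, while Kif21a, Kif3b, Kif5c and Kif26b lie to the right.

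Some mitotic kinesins were missing from the FTO list altogether. Of 9 with Vector peaks, 4 had no FTO peak at all, namely Kif4a, Kif23, Kif2c and Kif22. This was so for 1 of 14 transport kinesins, Kifc3, and for 2 of 5 other kinesins, Kif24 and Kif2a. Together these were 7 of 28 kinesins with Vector peaks, beside 18.1% of all genes with Vector peaks. Kif22 had only 1 Vector peak to lose, and Kif23 and Kif2c had 2 each. Numbers lower by 3 or more were found in 3 mitotic and 3 transport kinesins, and in 5.97% of all genes. A difference of this size needs a gene with several Vector peaks.

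Kif4a, a chromosome-bound motor that limits microtubule growth at the midzone, had 7 peaks in the Vector list and none in the FTO list. Their lengths from the 5′ to the 3′ end of the gene were 176, 133, 145, 171, 108, 78 and 177 bp. No Kif4a peak was longer than 177 bp. Kif15, which helps hold the spindle poles apart, had Vector peaks of 218, 123, 102, 165, 110, 76 and 166 bp in the same orientation. In the FTO list it had 1 peak of 218 bp, the length of the Vector peak nearest to the 5′ end. Kif20b, a midzone motor that acts in the last step of cytokinesis, had 10 Vector peaks of 288, 142, 109, 35, 142, 1231, 126, 128, 156 and 177 bp. Its 3 FTO peaks were 142, 1231 and 156 bp long and thus each matched a Vector peak. Which of the 2 Vector peaks of 142 bp was kept cannot be told from lengths. Together these 3 genes held 24 of the 37 mitotic Vector peaks and 4 of the 8 FTO peaks.

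The remaining mitotic kinesins had few peaks to begin with. Kifc1, a minus-end motor that focuses spindle poles, had Vector peaks of 141, 398, 780 and 291 bp, and only the inner 398 and 780 bp peaks were in the FTO list. Kif14, which recruits the citron kinase to the midbody, had Vector peaks of 1217 and 371 bp and an FTO peak of 1217 bp. Kif2c, a microtubule depolymerase at centromeres, had Vector peaks of 106 and 694 bp. Kif23, a part of the centralspindlin complex needed for cleavage, had 124 and 129 bp, and Kif22, a chromosome arm motor, had 108 bp. None of these 3 had an FTO peak. Kif18b, which shortens astral microtubules, was the exception in length, with Vector peaks of 125 and 327 bp on 2 transcripts and an FTO peak of 526 bp on 1 of them. No peak was listed in either group for Kif11, the motor that separates the spindle poles, nor for Kif18a, Kif20a and Kif2b.

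**Figure D2:**
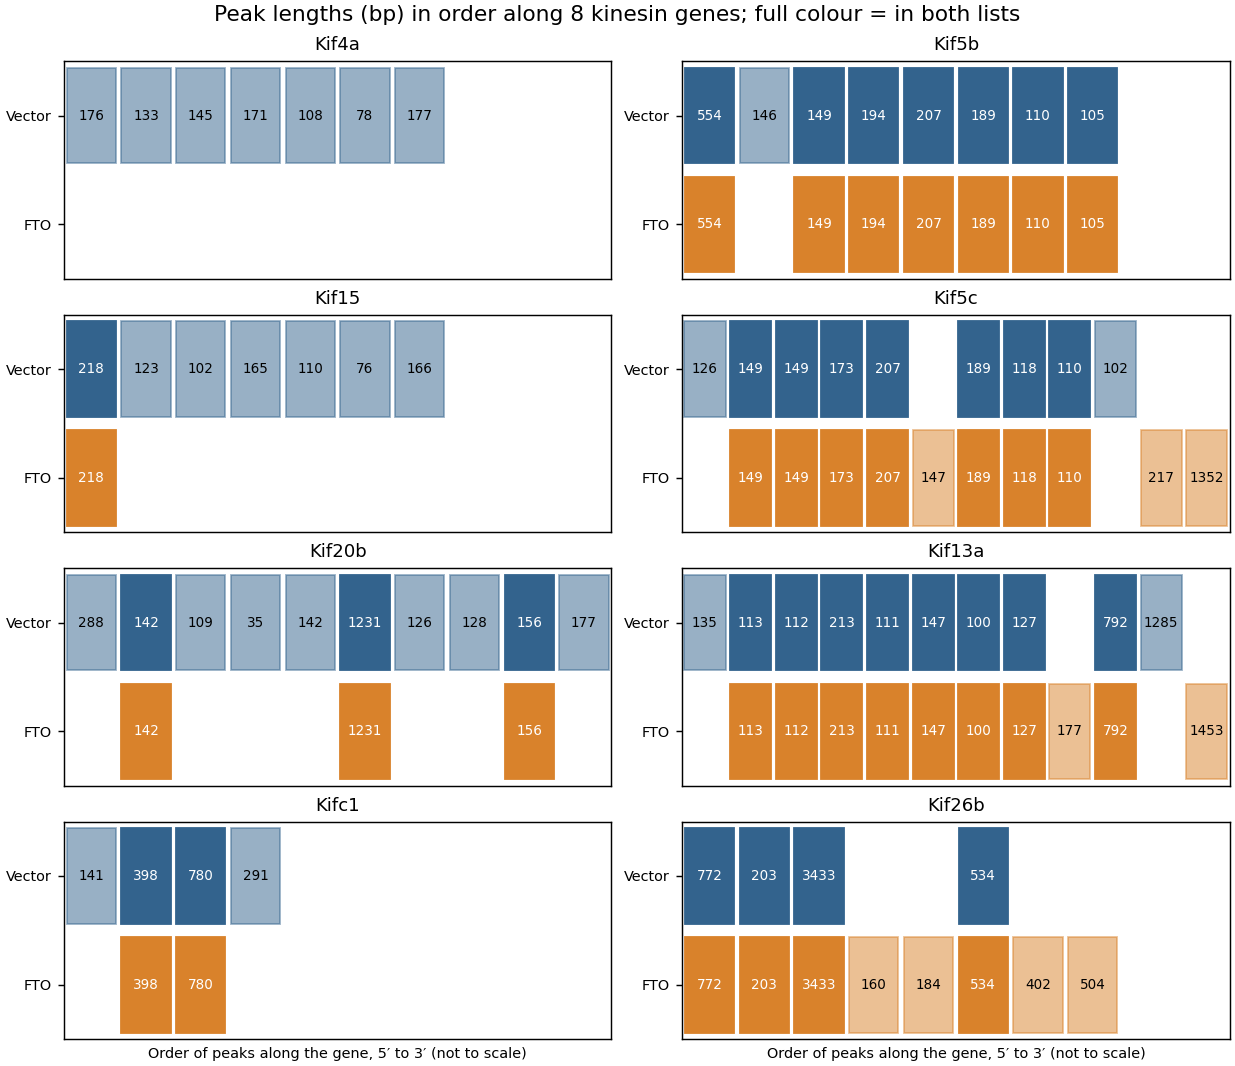
Lengths in bp of the peaks of 8 kinesin genes in order from the 5′ to the 3′ end (horizontal axis, not to scale), Vector above and FTO below; full colour marks a length found in both lists in the same order, pale colour a peak of 1 list, and neighbouring pale peaks of different lists have no known order between them. Kif4a has 7 pale Vector peaks and an empty FTO row, whereas 7 of the 8 Kif5b peaks recur.

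The promoters of the mitotic kinesins were compared with those of the other kinesins. Promoters of genes expressed at mitosis often hold a cell cycle genes homology region (CHR), TTTGAA, beside CCAAT boxes. In windows of 300 bases, 250 before and 50 after the start site, searched on both strands, TTTGAA was found in 6 of the 11 mitotic kinesins with an entry in the RefSeq promoter table (Kif15, Kif20b, Kif22, Kif23, Kif4a and Kifc1). It was found in 0 of 12 transport kinesins, in 1 of 7 other kinesins (Kif26b) and in 18.3% of all 33469 promoters. CCAAT was found in 7 of 11, 3 of 12 and 3 of 7, and in 37.5% of all. Kinesins were counted by gene, with a match in any of its promoters, whereas the shares of all are by promoter. The 11 mitotic genes had 12 promoters, and the 33469 promoters belong to 27457 genes. No entry was matched for 2 mitotic, 5 transport and 4 other kinesins. A match of letters is a description and not a bound site, and transcription was not measured in these lists. The 3 mitotic genes with the largest differences in peak number are set beside Kif5c, a transport kinesin without either motif, to show the letters behind these counts. A link of motif to peak number was not tested, and other genes went other ways. Kif26b held both motifs and had 4 Vector and 8 FTO peaks. Kif2c, with 2 and 0 peaks, and Kif18b, with 2 and 1, held neither. Kif11 and Kif20a held CCAAT and had no listed peak. The transport kinesins with CCAAT were Kif1b, Kif3b and Kif5b. The sequences run 5′ to 3′ from 250 bases before to 30 bases after the start site, from RefSeq on GRCr8, with both motifs in capitals on either strand. Kif15 lies at chr8:131479154-131479433, Kif20b at chr1:241840766-241841045, Kif4a at chrX:69761633-69761912 and Kif5c at chr3:54441057-54441336, all on the plus strand.
Kif15: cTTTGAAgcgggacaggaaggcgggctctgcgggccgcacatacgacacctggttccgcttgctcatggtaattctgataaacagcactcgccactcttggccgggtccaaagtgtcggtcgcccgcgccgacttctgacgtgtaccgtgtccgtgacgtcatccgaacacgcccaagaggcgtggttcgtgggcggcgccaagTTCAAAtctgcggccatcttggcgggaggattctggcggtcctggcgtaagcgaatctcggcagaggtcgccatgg
Kif20b: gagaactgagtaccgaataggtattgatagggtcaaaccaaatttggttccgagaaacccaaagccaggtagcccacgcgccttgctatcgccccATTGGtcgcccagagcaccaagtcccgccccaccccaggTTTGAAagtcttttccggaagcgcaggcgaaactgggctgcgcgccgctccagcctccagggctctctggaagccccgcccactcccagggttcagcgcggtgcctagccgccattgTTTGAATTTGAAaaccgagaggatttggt
Kif4a: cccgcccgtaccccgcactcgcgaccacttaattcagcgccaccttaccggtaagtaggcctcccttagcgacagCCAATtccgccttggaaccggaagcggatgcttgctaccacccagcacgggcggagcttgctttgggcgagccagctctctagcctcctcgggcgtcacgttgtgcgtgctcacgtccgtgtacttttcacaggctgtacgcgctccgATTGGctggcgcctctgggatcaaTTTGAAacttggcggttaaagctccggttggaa
Kif5c: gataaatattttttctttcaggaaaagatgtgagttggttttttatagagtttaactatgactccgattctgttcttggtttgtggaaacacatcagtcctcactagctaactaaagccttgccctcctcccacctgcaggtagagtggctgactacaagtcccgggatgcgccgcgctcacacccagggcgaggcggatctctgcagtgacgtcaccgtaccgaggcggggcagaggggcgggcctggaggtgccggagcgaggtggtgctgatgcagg
By the distance of its first base from the start site, Kif4a held TTTGAA at -3 and CCAAT boxes at -27 and -175. Kif20b held TTTGAA at -116 and, in adjoining copies, at 2 and 8, and a CCAAT box at -155. Kif15 held TTTGAA at -46 and -249 and had no CCAAT box.

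Peaks were matched between the lists 1 to 1 when gene and length were equal, because positions were not used. Throughout, a peak said to recur, to be kept or to be in both lists is one of equal length in the same gene. Whether it lies at the same place is not known. Of the 137 kinesin Vector peaks, 72 had such a partner and 65 had none, a share of 47.4% without (95% Wilson interval 39.3% to 55.8%), against 42.7% over all Vector peaks. The intervals cover counting error only, and peaks of a gene are not independent. In the mitotic class 30 of 37 had no partner, which is 81.1% (65.8% to 90.5%). In the transport class 31 of 85 had none, which is 36.5% (27.0% to 47.1%), and in the other kinesins 4 of 15. In the opposite direction, 25 of the 97 FTO peaks had no Vector partner, which is 25.8% (18.1% to 35.3%), against 31.6% over all FTO peaks. Only 1 of these 25 was in a mitotic gene, the 526 bp peak of Kif18b. All 72 pairs also kept their order along the gene.

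Vector peaks without a partner of equal length were shorter by median than those with one, and some had an FTO peak of another length in the same gene. In the mitotic class, the 30 Vector peaks without a partner had a median of 131 bp and the 7 with a partner a median of 398 bp. In the transport class the medians were 126 bp for 31 peaks and 185 bp for 54. Of the 20 kinesin Vector peaks of at least 500 bp, 17 recurred with the same length (85.0%), whereas 55 of the 117 shorter ones did (47.0%). Over all genes the shares were 56.9% and 57.4%. The 3 long peaks without a partner were the 694 bp peak of Kif2c, the 2217 bp peak of Kif24 and the 1285 bp peak of Kif13a. The class difference was present among the shorter peaks, of which 4 of 33 recurred in mitotic kinesins and 45 of 75 in transport kinesins.

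**Figure D3:**
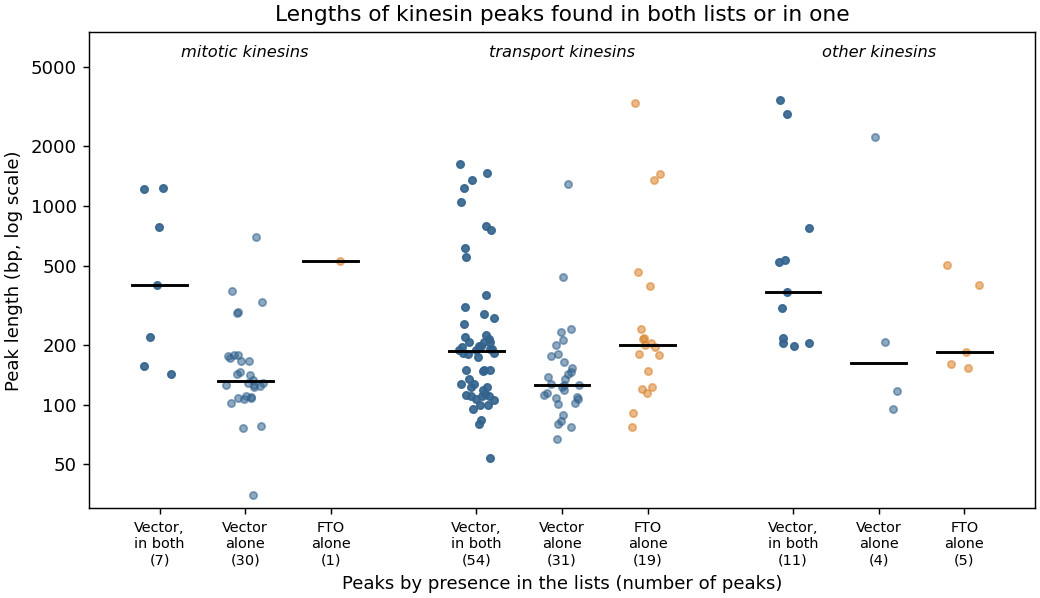
Length in bp (vertical axis, log scale) of each kinesin peak (points), by class, for Vector peaks that recur at equal length in the FTO list, for Vector peaks that do not, and for FTO peaks without a Vector partner; black bars are medians and the number of peaks is given below each group. Mitotic Vector peaks found in the Vector list alone centre on 131 bp, and those found in both lists on 398 bp.

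The total length under the peaks gave another view of the classes. In the mitotic kinesins it was 9293 bp in the Vector list and 4668 bp in the FTO list, or 50.2%, with a mean peak length of 251 and 584 bp. In the transport kinesins it was 22484 and 26154 bp, or 116%, with means of 265 and 358 bp. The median length went from 142 to 462 bp in the mitotic and from 149 to 189 bp in the transport class, beside 203 and 228 bp over all peaks. The mitotic FTO median rests on 8 peaks. In the transport class, FTO peaks without a Vector partner summed to 9279 bp and Vector peaks without an FTO partner to 5609 bp. The longest of the former were peaks of 3316 bp in Kif3b, 1453 bp in Kif13a and 1352 bp in Kif5c. The higher FTO total of the transport class rested on few such peaks.

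The conventional kinesins, the Kif5 motors that drive anterograde transport, differed in how far their peaks recurred. Kif5b, the form found in most tissues, had Vector peaks of 554, 146, 149, 194, 207, 189, 110 and 105 bp. All but the 146 bp peak were in the FTO list. Kif5c had Vector peaks of 126, 149, 149, 173, 207, 189, 118, 110 and 102 bp. In the FTO list it had 149, 149, 173, 207, 147, 189, 118, 110, 217 and 1352 bp. Apart from the 147 bp peak, the middle of the gene thus recurred and the ends did not. Kif5a, known from neurons, had 1 peak of 310 bp in each list.

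The Kif1 motors, monomeric or dimeric carriers of vesicles, kept part of their peaks. Kif1c had Vector peaks of 109, 180, 179, 80, 95, 84, 615 and 1225 bp, and all but the 2 at the 5′ end were in the FTO list. Kif1b had 285, 175, 77, 80, 135, 190 and 67 bp in the Vector list and 285, 240, 135, 190 and 123 bp in the FTO list. Kif1a, the carrier of synaptic vesicle precursors, had 101, 112, 107, 181 and 439 bp and then 120, 180, 107, 181 and 394 bp. Its number of peaks was therefore equal, but only 2 of the 5 lengths were.

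Among the other carriers, Kif13a, which moves endosomes, had 10 peaks in each list and 8 in common. Its Vector peaks were 135, 113, 112, 213, 111, 147, 100, 127, 792 and 1285 bp long, and its FTO peaks were 113, 112, 213, 111, 147, 100, 127, 177, 792 and 1453 bp long. Its paralog Kif13b differed far more, with 143, 211, 163, 127, 122 and 760 bp in the Vector list and 760 and 464 bp in the FTO list. Kif16b, an early endosome motor, had 127, 138, 83, 89, 54, 1344 and 153 bp and then 127, 114, 54 and 1344 bp. Kif3a and Kif3b are subunits of the motor of intraflagellar transport. Kif3a had 126, 274, 198, 99 and 181 bp, of which all but the 126 bp peak recurred. Kif3b had 1468, 123 and 106 bp and then 77, 1468, 123 and 3316 bp, and Kif3c had 1629, 123, 119 and 1047 bp, of which all but the 119 bp peak recurred. Kifc3, a minus-end motor of epithelial cells, had 1 Vector peak of 240 bp alone. Kif17 and Kifc2 had no peak in either list.

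Kif21a and Kif21b, paralogs that slow microtubule growth, went in opposite directions. Kif21a had no Vector peak and 5 FTO peaks of 204, 91, 200, 215 and 195 bp, all on 1 transcript. It was the sole kinesin of 22 with FTO peaks that had none in the Vector list, and 11.4% of all genes with FTO peaks were so. Kif21b had 11 Vector peaks of 357, 223, 196, 190, 219, 200, 108, 233, 206, 114 and 253 bp in chromosome order, its strand not being in the table used. Its 7 FTO peaks, of 357, 223, 196, 190, 219, 206 and 253 bp, were all among them. At least 3 more FTO than Vector peaks were found in Kif21a and Kif26b, 2 of 29 kinesins, and in 1.39% of all genes.

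The kinesins outside both classes included the gene with the longest kinesin peak in both lists. Kif26b, an atypical kinesin without motor activity that acts in kidney development, had 772, 203, 3433 and 534 bp in the Vector list, and all of these recurred. Its FTO list added peaks of 160, 184, 402 and 504 bp, all 3′ of the 3433 bp peak. Kif26a, its paralog, had 3 Vector peaks and 2 FTO peaks, the longest being 2911 bp in both. Kif7, a regulator of Hedgehog signalling at the tip of the cilium, had 368, 216, 198, 203, 117 and 520 bp in the Vector list and 153 bp in place of 117 bp in the FTO list. Kif24, which restrains cilium formation, had a single Vector peak of 2217 bp, and Kif2a, a microtubule depolymerase, a single one of 95 bp. Both had none in the FTO list. Kif6, Kif9, Kif12, Kif19, Kif19b, Kif27 and Kif4b were not listed in either group.

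The lists also show how many peaks were numbered around each kinesin. The peaks are numbered in genome order, and the lists skip numbers, with a highest number of 59557 for Vector and 52060 for FTO (87.4%). For each kinesin, the numbers between the nearest genes on either side with peaks in both lists were counted, whether listed or not. This stretch held 20 numbers for Kif4a in the Vector group, 7 of them listed, and 1 number in the FTO group, which was not listed. For Kif15 it held 17 and 4 numbers, and for Kif14 11 and 1. For Kif20b it held 34 and 29, and for Kifc1, the sole mitotic kinesin with more, 6 and 8. Summed over the 9 mitotic stretches there were 113 and 62 numbers (54.9%), and over the 15 transport stretches 279 and 266 (95.3%). These sums include the listed peaks and so are not separate from the peak counts. The unlisted numbers alone were 75 and 52 in the mitotic stretches, fewer in the FTO group for 4 genes, as many for 1 and more for 4. In the transport stretches they were 188 and 186. The stretch around Kif21a held 18 numbers in the Vector group, 1 of them listed and of another gene, and 19 in the FTO group, 5 of them listed. To which genes the unlisted numbers belong was not determined.

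Genes that work with kinesins were counted in the same way, beside the 41.4% of all genes with fewer FTO peaks and the 21.2% with more. Of 20 spindle and midzone partners, 16 had peaks, 15 of them fewer in the FTO group and 1 more, with 110 Vector peaks and 45 FTO peaks (40.9%). The whole Vector list held 21249 peaks in 7894 genes, so these partners had more peaks per gene and more room for a lower number. Cenpe, a kinesin of the centromere whose symbol lies outside the naming rule, had 19 and 8 peaks. Cit, the citron kinase bound by Kif14, had 15 and 4, and Tpx2, a spindle assembly factor, 13 and 5. Cenpf had 16 and 8, Anln 5 and 1, Ndc80 5 and 0 and Bub1b 6 and 0. The exception was Numa1, which anchors spindle poles, with 8 and 9. Among 18 light chains and cargo adaptors, 14 had peaks, 8 fewer, 3 as many and 3 more in the FTO group, with 47 and 34 peaks. Trak1 and Trak2, which couple mitochondria to Kif5, had 12 and 6 and 5 and 2. Of 21 genes of the opposing motor dynein and its partners, 13 had peaks, with 45 Vector and 32 FTO peaks. Of the 13, 6 had fewer (46.2%, near the share of all genes) and 7 as many. Dync1h1, the dynein heavy chain, had 5 and 1, and Nde1 had 5 and 2. The median difference per gene was -2 peaks in the mitotic kinesins and in the spindle partners, -1 in the transport kinesins and the adaptors, and 0 in dynein and over all genes. The lists were drawn up with earlier results of these data known, so they are not independent support for each other.

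**Figure D4:**
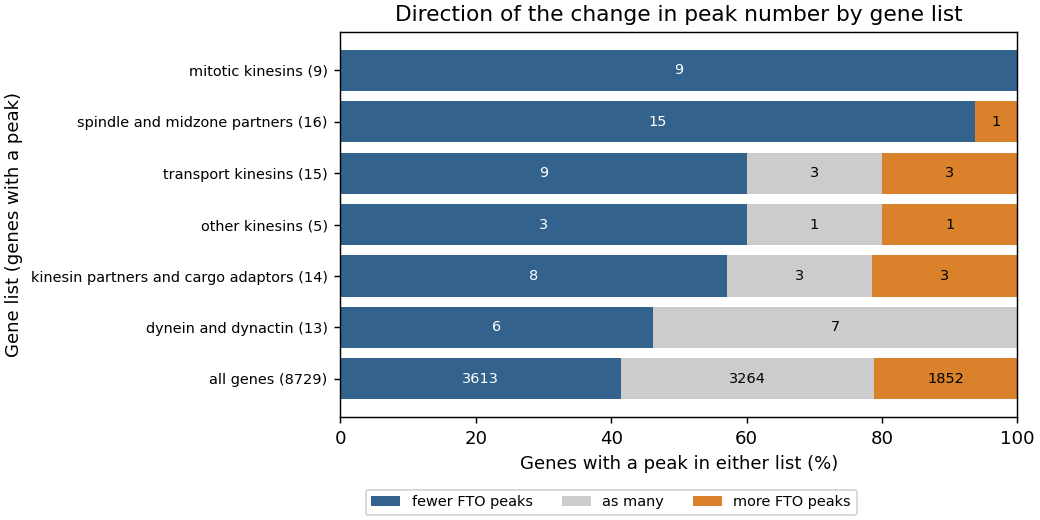
Share in percent (horizontal axis) of listed genes that had fewer (blue), as many (grey) or more (orange) FTO peaks, for each gene list (vertical axis, genes with a peak in parentheses); the numbers in the bars are genes. The mitotic kinesins (9 of 9) and the spindle and midzone partners (15 of 16) stand at the top, and all genes (3613 of 8729) at the bottom. The lists were not matched for Vector peaks per gene.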

How the data were processed

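m6A-seq (MeRIP-seq) was performed on CFs with 1 m6A-IP and 1 input library per group. Per the labels, the submitters' processing notes name cutadapt 1.9.3, HISAT2 2.0.4 and the rn6 build. The authors deposited 1 peak list per group, whose measured value is the length of each peak in bp, without normalization or a score. The peak names carry the prefix MACS, and the settings and threshold of the peak caller are not given in the sources used here.

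Gene IDs were matched to symbols with the RefSeq table of GRCr8, which named 7489 of 7723 Vector IDs and 6920 of 7145 FTO IDs. Peaks without a gene ID, 248 and 213, were counted under their transcript. Peaks were paired 1 to 1 by gene and length. The code was run on simulated lists in which changed peaks had lengths found nowhere else. That run therefore cannot show whether peaks of equal length are the same peak. Within a gene, peaks were ordered by their number, which followed the GRCr8 gene order (median Spearman coefficient over 21 chromosomes 0.987 for Vector and 0.988 for FTO, across genes), and were turned by the strand in the RefSeq promoter table, which held 22 of the 29 kinesins. The other 7 are given in chromosome order.

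The members, classes and lists were chosen with earlier results of these data known, and the promoter motifs after the peak numbers had been seen. Every length is given for kinesins with 5 or more peaks in a list, a difference of 3 or more, or peaks in 1 list alone. Lengths of Kif14, Kif18b, Kif26a, Kif3b, Kif3c, Kif5a and Kifc1 were added after they had been seen. Of the partner lists, genes that differed by 3 or more peaks are named, and Numa1 was added as the exception. Peaks per coding length were planned but not computed, since no protein or transcript sequences were used here. Alternatives were minimum lengths of 100 and 200 bp, 1 transcript per gene, scaling by list size, other class borders and other pairing rules. Software versions were pandas 2.3.3, scipy 1.17.1 and numpy 2.4.6 under Python 3.11.15, with matplotlib 3.10.9 for plots.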

Additional observations from a re-analysis of the deposited data

How the results depend on the processing

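Of 100 values under the alternatives, 77 stayed within 1.5 times the count or within the 95% binomial interval of the share or median, 21 moved and 2 turned. Some of the 77 could not move, such as Vector counts when only FTO numbers were scaled. The interval of the mitotic FTO median was wide, 142 to 1231 bp, so staying within it says little. Pairing in the same order along the gene was added after the data had been seen and gave the same shares. Keeping peaks of at least 200 bp moved the most. It left 48 kinesin peaks in each list, a difference of 0, and 8 kinesins with fewer FTO peaks. The mitotic class then had 10 Vector peaks and a difference of -4, with a median length of 384.5 bp, and the transport class had 26 and 30 peaks, a difference of 4, with medians of 297.5 and 333.5 bp. The shares without a partner were then 27.1% for all kinesins, 50% for the mitotic and 23.1% for the transport class. This alternative removes the short peaks by construction. Scaling the FTO numbers by the ratio of the list sizes gave a difference of -21.18 for all kinesins, 9 kinesins with more FTO peaks, and 2.16 for the transport class. Adding Cenpe to the mitotic class gave 56 and 16 peaks, and leaving out Kif20b left 5 mitotic FTO peaks. When peaks of a gene were paired 1 to 1 whatever their length, the shares were 37.2% for all kinesins and 22.4% for the transport class. The mitotic difference was negative under every alternative run, from -40 with Cenpe to -4 with peaks of at least 200 bp. No paired analysis was possible because 1 m6A-IP and 1 input library make up a group. The unknown depth limits each comparison of peak numbers.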

Other observations

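Some paralogous kinesins had peak lengths in common. Over both lists, Kif5b and Kif5c had 4 lengths in common, 149, 207, 189 and 110 bp, and these stood in the same order along both genes in both lists. Of 13 pairs of kinesins within a subfamily, 6 shared at least 1 length and 7 shared none, and Kif5b with Kif5c was the sole pair to share 3 or more. Single shared lengths were 123 bp for Kif3b and Kif3c, 127 bp for Kif13a and Kif13b, 200 bp for Kif21a and Kif21b, 180 bp for Kif1a and Kif1c and 80 bp for Kif1b and Kif1c. Of the 393 other kinesin pairs, 32 shared a length, and at most 2 were shared by a pair. Why paralogs shared lengths was not tested, since positions, exons and reads were not used. Reads that fit more than 1 paralog were thus not examined either.

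Peaks of 8 of the 29 kinesins were spread over 2 or more transcripts, among them the 1352 bp FTO peak of Kif5c, which is listed under another transcript than the gene's Vector peaks. The FTO peaks of 11 of the 22 kinesins with FTO peaks all had a Vector partner of the same length. The share over all genes was not computed for this count or for the count of transcripts, so neither is read as a trait of kinesins. In the mitotic genes among the 11, Kif14, Kif15, Kif20b and Kifc1, each FTO peak length was thus also a Vector peak length. Equal lengths do not show that the peaks are the same.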
